A study of Mus musculus with 42 samples.

Results

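Interferon-response genes are the genes that cells switch on when type I or type II interferon, or the sensing of foreign or misplaced nucleic acid, activates the STAT and IRF transcription factors. A list of 35 such genes was followed here in mouse pre-B cell lines that lack, or carry mutants of, proteins of the DNA double-strand break response. For each gene the probe set with the highest mean over all arrays was used among those that the platform annotation gives to that symbol alone. Of the 35 genes, 34 had such a probe set. Isg15, a ubiquitin-like protein, lay only on a probe set with several symbols and has no value here. Of the 34 genes, 29 were above the median of their own array on at least 3 arrays and were tested, among 12307 tested genes of 18193 on the platform.

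The samples were 21 v-abl pre-B lines, made by transforming bone marrow of mice 3 to 5 weeks old with the retrovirus pMSCV-v-abl, which carries an oncogenic tyrosine kinase. Every mouse carried the Em-Bcl2 transgene, an apoptosis inhibitor driven by an immunoglobulin enhancer, so all groups, WT included, share v-abl and Bcl2. There were 3 lines of each of 7 genotypes: WT (lines 1, 3 and 4), Atm-/- (which lack the kinase that starts the response to broken ends), Scid (whose Prkdc mutation cripples the kinase DNA-PK), Mre11A/A (with a weakened form of the nuclease Mre11), and 53bp1-/-, H2ax-/- and Mdc1-/-, which lack a histone variant (H2ax) or a factor that gathers on damaged chromatin. The mutant lines are numbered 1, 2 and 3. RNA of each line was hybridized to 1 Affymetrix array untreated and to 1 array 2 h after 1 Gy of γ-rays from cesium, which gave 42 arrays in 14 groups of 3. Values are signals on a linear scale, and the array of untreated WT line 1 had a trimmed mean of 500.003. Tests were made with limma on log2(signal + 16), in which a change of a weak signal is understated, and p-values were Benjamini-Hochberg adjusted over all 12307 genes with a threshold of 0.05. Errors after ± are the SD of 3 lines for signals and the standard error (SE) of the fit for log2 differences.

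As background, interferons bind cell-surface receptors whose JAK kinases activate transcription factors, and a complex that holds Stat2 and Irf9 binds interferon-stimulated response elements (ISRE) in promoters. Gamma-activated sites (GAS) are another element of such promoters. Irf1 and Irf7 are themselves induced and amplify the response, and Irf1 is also a target of NF-kB. The products include sensors of viral RNA, enzymes that degrade viral RNA or block translation, guanylate-binding proteins, and the immunoproteasome subunits and peptide transporter that supply MHC class I molecules. DNA that leaks from the nucleus after unrepaired breaks can start the same programme through cGAS and STING, and signalling from Atm to NF-kB can reach some of the same genes.

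The labels were checked first. Over 6 WT arrays and 6 arrays of the matching mutant, mean signals were 762 and 184 for Atm, 1497 and 559 for Mre11a, 1479.6 and 978 for Trp53bp1 (53bp1), 10749 and 69.5 for H2ax, and 418 and 60.7 for Mdc1; Prkdc gave 593 and 525 in Scid lines, whose allele is a point mutation. Of 14 pre-B cell markers 12 were on the platform and all 12 were kept, with summed signals of 79867 to 145360, whereas 1 of 6 T cell, 2 of 6 plasmacytoid dendritic, 7 of 10 myeloid, 1 of 3 erythroid and 3 of 8 stromal markers on the platform were kept. Myeloid markers summed to 349.9 to 2991, highest in Scid line 1, where Fcgr3, one of these markers, read up to 2619.9. The Y-linked gene Eif2s3y was high (at least 2233) in 3 lines, Atm-/- line 3 and Mre11A/A lines 2 and 3, and at most 45.4 in the other 18. Array medians were 62.6 to 82.9 except for irradiated WT line 4 at 103.2 and irradiated Atm-/- line 2 at 115.7. The part of these differences in the results was not tested. In RNA from whole cultures, fewer cells with a transcript and less transcript per cell cannot be told apart.

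The first question was which of the genes gave a signal in these cells at all. On all 42 arrays 17 of the 34 genes were above the median of their array, and Ifit1, Oasl2, Mx1, Mx2 and Usp18 were above it on none. The other 12 tested genes were above it on 3 to 41 arrays, and 10 of these on 30 or fewer, so that much of their variation lies near the limit of the measurement. Signals of different probe sets are not amounts that can be set against each other, and the ranges below describe each gene on its own scale.

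Among the transcription factors, the signal of Stat2, the type I interferon STAT, ranged over the 42 arrays from 216 to 468 (median 304), that of Irf9, its DNA-binding partner, from 184 to 496 (median 365), and that of Irf1 from 614 to 1432 (median 899). Irf7, the factor that amplifies type I interferon production, ranged from 2.100 to 177 (median 49.9) and was above the array median on 10 arrays. The RNA sensor gene Ddx58 (RIG-I) ranged from 169 to 507 (median 299), whereas Ifih1 (MDA5) was above the array median on 14 arrays and Dhx58 (LGP2), a regulator of both, on 21. Eif2ak2 (PKR), which blocks translation on double-stranded RNA, ranged from 256 to 561 (median 412). Adar, which edits double-stranded RNA, and Ifit2, which binds viral RNA, were above the median on all arrays. The oligoadenylate synthetases Oas1a, Oas1b, Oas2 and Oasl1 were above it on 26, 30, 29 and 18 arrays. Thus the RNA-directed genes divided into some with a steady signal and others close to the array median.

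Mx1, the dynamin-like inhibitor of influenza viruses, ranged from 1.81 to 56.4 (median 23.2) and Ifit1 from 0.933 to 53.8 (median 15.5). In untreated lines the lowest, median and highest signals were 1.81, 22.03 and 47.8 for Mx1, and 4.07, 24.5 and 56.4 after radiation. The same values for Ifit1 were 0.933, 7.85 and 52.01 untreated and 2.74, 20.7 and 53.8 after radiation. Neither gene reached the array median on any array of any genotype. Rsad2 (viperin) was above the median on 8 arrays, Cmpk2 on 12 and Ifit3 on 14. By contrast, the immunoproteasome subunits Psmb8 (4383 to 9135 (median 6098)) and Psmb9 (1438 to 4289.6 (median 2956)), the peptide transporter Tap1 (827 to 3382 (median 1944)), Ifi35 (2269.9 to 4646 (median 3748)), the ubiquitin ligase Trim25 (1178 to 3827 (median 2364)) and the guanylate-binding protein Gbp3 (568 to 3599.7 (median 1708)) were above the array median on every array. Gbp2, another guanylate-binding protein, had the highest ratio of highest to lowest signal among the genes above the median on all arrays, from 174 to 3498 (median 943).

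**Figure D1:**
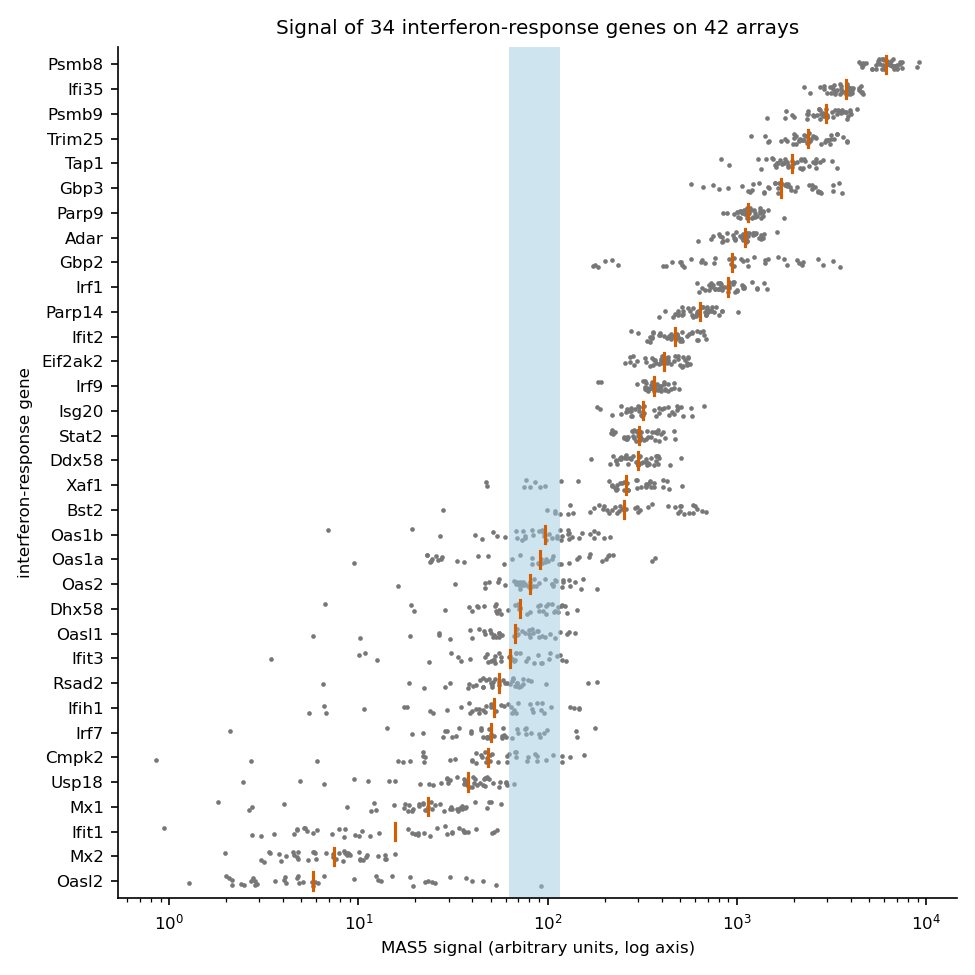
Signals of the 34 interferon-response genes on the 42 arrays (log axis, arbitrary units). Each point is 1 array, the orange mark is the median of a gene and the blue band spans the medians of the arrays. Ifit1, Oasl2, Mx1, Mx2 and Usp18 were above the median of their array on 0 arrays, and 17 genes were above it on all 42.

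Promoter sequences were read from RefSeq (GRCm38.p6), in which 27 of the 35 genes had at least 1 window from 250 bases before to 50 bases after the annotated start. The ISRE core GAAANNGAAA, searched on both strands, was found in 12 of the 35 windows of these genes, each of a different gene, and in 3.44% of all 32851 windows, which are of the same length. The palindromic GAS motif TTCNNNGAA was found in 9 of the 35 windows and in 8.3% of all, and the kappaB consensus of NF-kB, on both strands, in 6 of 35 and 8.46%. Irf1 is shown because its signal rose after radiation, and Gbp2 and Gbp3 because their levels differed among genotypes. The interval between Tap1 and Psmb9, which are read in opposite directions, is shown because these neighbours moved in opposite directions after radiation. Each sequence is the plus strand, 5′ to 3′, up to the base before the annotated start, with motif matches in capitals. In Irf1 (chr11:53769764-53770013) the capitals mark a GAS match at -90 to -82 and a kappaB match at -13 to -4 from the start. In Gbp2 (chr3:142620413-142620662) they mark an ISRE core at -59 to -50; the kappaB match of its window lies outside the stretch shown. In Gbp3 (chr3:142559794-142560043) they mark ISRE cores at -45 to -36 and -39 to -30, which overlap. The start of this Gbp3 window is 142560044, whereas the RefSeq gene begins at 142560016, so the last bases shown lie within the gene. In the interval from Psmb9 to Tap1 (chr17:34187331-34187555) none of the 3 motifs was found, which says only that these letters are not in this stretch.
Irf1: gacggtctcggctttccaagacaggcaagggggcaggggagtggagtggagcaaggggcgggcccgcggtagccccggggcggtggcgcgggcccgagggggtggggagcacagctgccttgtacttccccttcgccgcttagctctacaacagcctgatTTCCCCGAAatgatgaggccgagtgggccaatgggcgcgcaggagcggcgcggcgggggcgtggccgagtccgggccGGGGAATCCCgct
Gbp2: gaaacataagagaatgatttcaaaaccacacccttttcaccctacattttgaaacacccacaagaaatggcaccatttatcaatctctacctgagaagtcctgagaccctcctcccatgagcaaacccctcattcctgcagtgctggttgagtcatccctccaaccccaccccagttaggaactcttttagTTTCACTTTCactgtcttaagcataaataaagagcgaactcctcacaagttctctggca
Gbp3: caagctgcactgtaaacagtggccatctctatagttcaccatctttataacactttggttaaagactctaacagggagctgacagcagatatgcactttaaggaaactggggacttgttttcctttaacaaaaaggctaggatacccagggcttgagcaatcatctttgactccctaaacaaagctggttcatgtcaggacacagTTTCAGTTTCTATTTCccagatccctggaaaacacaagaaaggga
Tap1-Psmb9 interval: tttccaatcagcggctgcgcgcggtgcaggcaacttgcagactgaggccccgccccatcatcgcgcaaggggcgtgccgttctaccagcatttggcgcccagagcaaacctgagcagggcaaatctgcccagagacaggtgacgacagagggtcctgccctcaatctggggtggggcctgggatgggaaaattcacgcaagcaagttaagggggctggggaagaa

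Untreated levels differed among the 7 genotypes for Gbp2, Gbp3, Xaf1, Dhx58 and Oas1b. These are 5 of the 29 tested genes (17.2%) in limma's F test, against 16% of all tested genes, so the list was called about as often as the platform as a whole. In the 21 pairwise comparisons of genotypes, p-values were adjusted over all genes and pairs together. Of the 29 genes, 9 were called in at least 1 pair, against 21.6% of all genes. The further 4 were Ifi35, Tap1, Stat2 and Cmpk2. Other kept probe sets of these 4 did not all follow the called pair. For Ifi35 (53bp1-/- against Atm-/-) untreated means were 591 and 717 on one and 629 and 541 on another. For Stat2 (H2ax-/- against Scid) they were 180.1 and 180.8, and for Cmpk2 (Mdc1-/- against Scid) 76.8 and 65.4. Those of Tap1 are given below. The genotypes with low and high signals differed from gene to gene: Gbp2 and Gbp3 were low in Atm-/- and Scid lines and high in 53bp1-/- and Mdc1-/- lines, Xaf1 was low in Mdc1-/- lines, and Oas1b was low in WT lines.

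Gbp2 is an interferon-inducible GTPase that acts against intracellular pathogens. Its untreated signals were 1053, 912 and 1773 in WT lines 1, 3 and 4, 504, 236 and 422 in Atm-/- lines 1, 2 and 3 and 571, 199.8 and 174 in Scid lines. Every Atm-/- and every Scid line was below every WT line. Mre11A/A lines gave 524, 644 and 962 and H2ax-/- lines 765, 451 and 1123, ranges that overlapped each other and WT. In 53bp1-/- lines the signals were 2119.5, 3197 and 753, and in Mdc1-/- lines 2208, 1407 and 1839. All Mdc1-/- lines were above all Atm-/-, Scid, Mre11A/A and H2ax-/- lines and overlapped WT, while 53bp1-/- line 3 lay below every WT line and among the Mre11A/A and H2ax-/- values. The 7 genotypes differed (F = 7.02, adjusted p = 0.00187). The Scid minus WT difference in mean log2 level was -2.07 (adjusted p over the pairs = 0.0276). Mean log2 levels were higher in 53bp1-/- than in Atm-/- lines by 2.17 and than in Scid lines by 2.59, and in Mdc1-/- lines by 2.23 and 2.64 (highest of these 4 adjusted p-values 0.0196). A second Gbp2 probe set followed the first over the 42 arrays (r = 0.989), with untreated means of 1132 in WT, 229 in Scid and 1609.5 in Mdc1-/- lines.

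Gbp3 lies 47450 bases from Gbp2 on chromosome 3 and encodes a GTPase of the same family. Untreated signals were 1815, 1657 and 1646 in WT, 1061, 568 and 1148 in Atm-/- and 1457, 801 and 898 in Scid lines. As for Gbp2, all WT lines were above all Atm-/- and Scid lines. Signals were 1215, 1178 and 2064 in Mre11A/A, 2485, 2764 and 1641 in 53bp1-/-, 2579, 1578 and 1483 in H2ax-/- and 2668, 2662 and 2398 in Mdc1-/- lines. The Mdc1-/- lines were above every WT, Atm-/-, Scid and Mre11A/A line. The genotypes differed (F = 6.83, adjusted p = 0.00224), and the called pairs were those of 53bp1-/- or Mdc1-/- against Atm-/- (1.33 and 1.52) and against Scid (1.13 and 1.33). The F tests of both genes were called without each of the 21 untreated arrays in turn, with adjusted p-values of at most 0.00846 for Gbp2 and 0.0082 for Gbp3. Over the 21 untreated lines the log2 levels of both genes followed each other (r = 0.872), which describes lines that share genotypes.

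**Figure D2:**
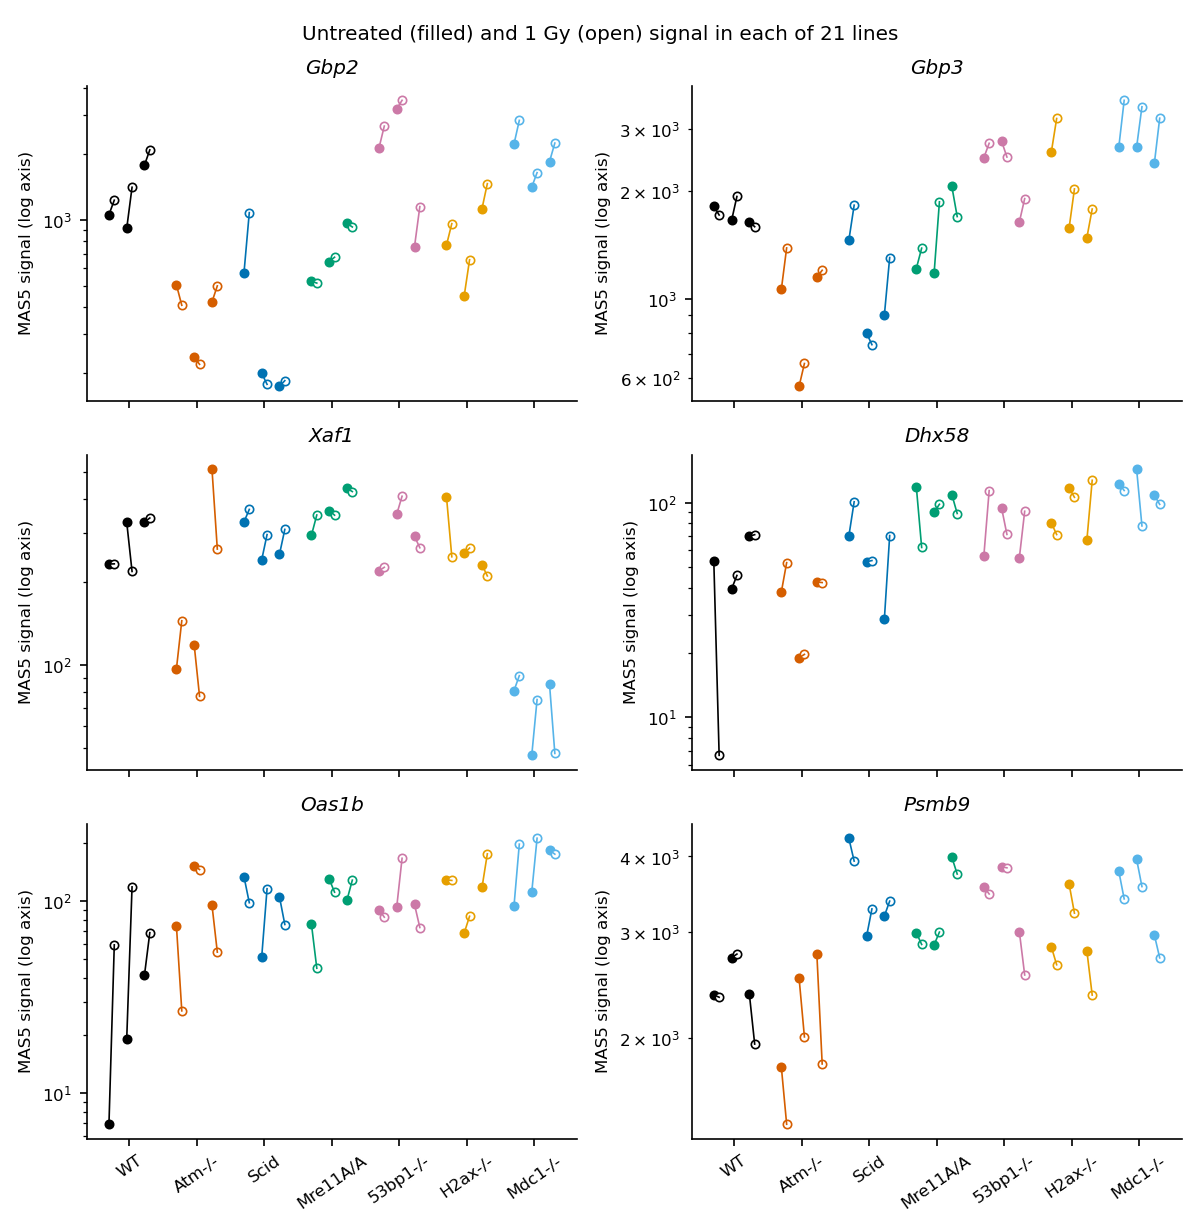
Signals of Gbp2, Gbp3, Xaf1, Dhx58, Oas1b and Psmb9 in each of the 21 lines, by genotype (log axis, arbitrary units); filled points are untreated arrays and open points the arrays 2 h after 1 Gy. Untreated Gbp2 and Gbp3 are lower in all Atm-/- and Scid lines than in all WT lines, and among untreated arrays Xaf1 is lowest in the 3 Mdc1-/- lines and Oas1b in the 3 WT lines.

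Xaf1, which binds the apoptosis inhibitor XIAP and is induced by interferon, had untreated signals of 80.6, 47.1 and 85.2 in Mdc1-/- lines. WT lines gave 232, 329 and 329, and Atm-/- lines 96.96, 118 and 511. Each Mdc1-/- line was below each of the other 18 untreated lines, whose remaining genotypes spanned 219 to 436. The genotypes differed (F = 7.196, adjusted p = 0.0016), and the Mdc1-/- minus WT difference was -1.86 ± 0.38 (limma adjusted p = 0.00248). Against Scid, Mre11A/A, 53bp1-/- and H2ax-/- lines the differences were -1.75, -2.14, -1.81 and -1.83, all called, and that against Atm-/- lines was not. A second kept Xaf1 probe set went the other way. It read 728, 798 and 687 in untreated Mdc1-/- lines, 353, 50.8 and 55.1 in WT lines and 189, 538 and 60.3 in Atm-/- lines, and its log2 values fell as those of the first rose over the 42 arrays (r = -0.783). With the mean of both probe sets the Mdc1-/- difference from WT had the opposite sign, at 0.39 and uncalled. The direction thus depended on the probe set, and which transcripts each set detects was not tested.

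**Figure D3:**
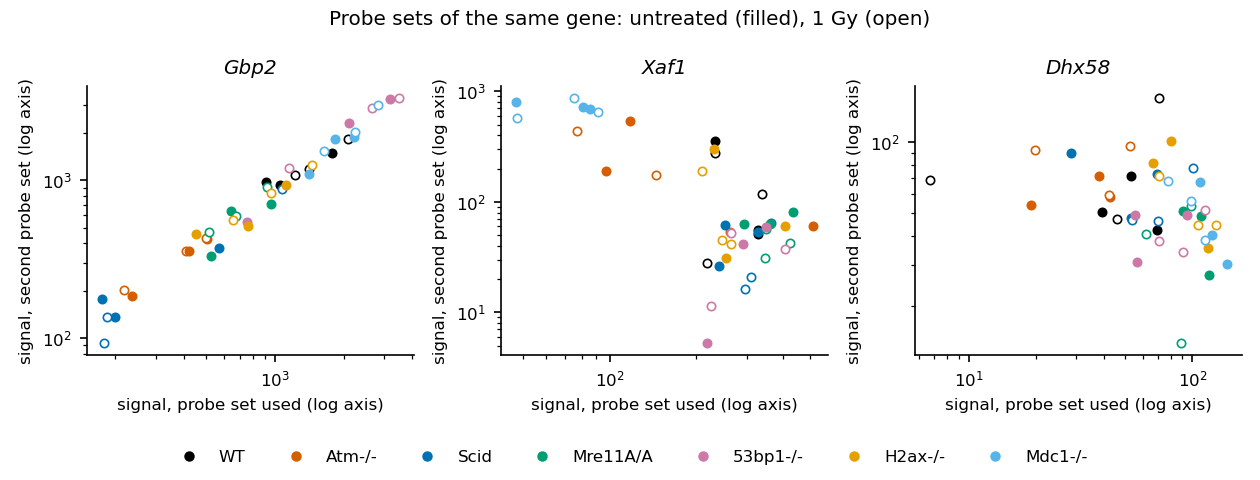
The probe set used (horizontal axis) against the second kept probe set (vertical axis) of Gbp2, Xaf1 and Dhx58 on the 42 arrays. Both are signals on log axes, coloured by genotype, and r is of log2(signal + 16). Both sets rise together for Gbp2 (r = 0.989) and go opposite ways for Xaf1 (r = -0.783), with the Mdc1-/- arrays low on one axis and high on the other.

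Dhx58, which encodes the RIG-I-like protein LGP2, had untreated signals of 38.3, 18.95 and 42.7 in Atm-/- lines and 53.2, 39.6 and 69.7 in WT lines. Mre11A/A lines gave 118, 90.3 and 109 and Mdc1-/- lines 123, 143 and 108. All Mre11A/A and Mdc1-/- lines were above all WT and Atm-/- lines. Scid (69.7, 53.1 and 28.6), 53bp1-/- (56.4, 94.4 and 55.4) and H2ax-/- lines (80.5, 117 and 66.9) overlapped with one or both of these ranges. The genotypes differed (F = 4.64, adjusted p = 0.0172), with called pairs for Mre11A/A and Mdc1-/- against Atm-/- lines (1.33 and 1.54). These signals are near the medians of the arrays. The second Dhx58 probe set did not follow the first (r = -0.378) and was not called (adjusted p = 0.631 in the fit of all probe sets), and with both averaged the adjusted p was 0.421; without Atm-/- line 2 it was 0.0543.

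Oas1b, a relative of the oligoadenylate synthetases known for resistance of mice to flaviviruses, had untreated signals of 6.903, 19.1 and 41.2 in WT lines. Mutant lines gave 73.9, 152 and 95.3 in Atm-/- lines, 134, 51.3 and 105 in Scid lines and 75.7, 130.2 and 101 in Mre11A/A lines. The further mutants gave 90.3, 93.3 and 96.1 in 53bp1-/- lines, 129, 68.3 and 118 in H2ax-/- lines and 94.2, 111 and 184 in Mdc1-/- lines. All 18 untreated mutant lines were above all 3 untreated WT lines, whose signals were below the medians of their arrays. The genotypes differed (F = 5.05, adjusted p = 0.0116), and each of the 6 mutants was above WT in the pairwise tests, by 1.58 in Scid to 1.98 in Mdc1-/- lines. After radiation the WT lines read 59.2, 119 and 68.5, within the range of the mutants. With both arrays of each line averaged, the genotypes were not called for this gene (adjusted p = 0.0585, between 0.00409 and 0.152 over the alternatives), nor without WT line 1 or 3, and of the comparisons with WT only that of Mdc1-/- lines was called (adjusted p = 0.00822).

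**Figure D4:**
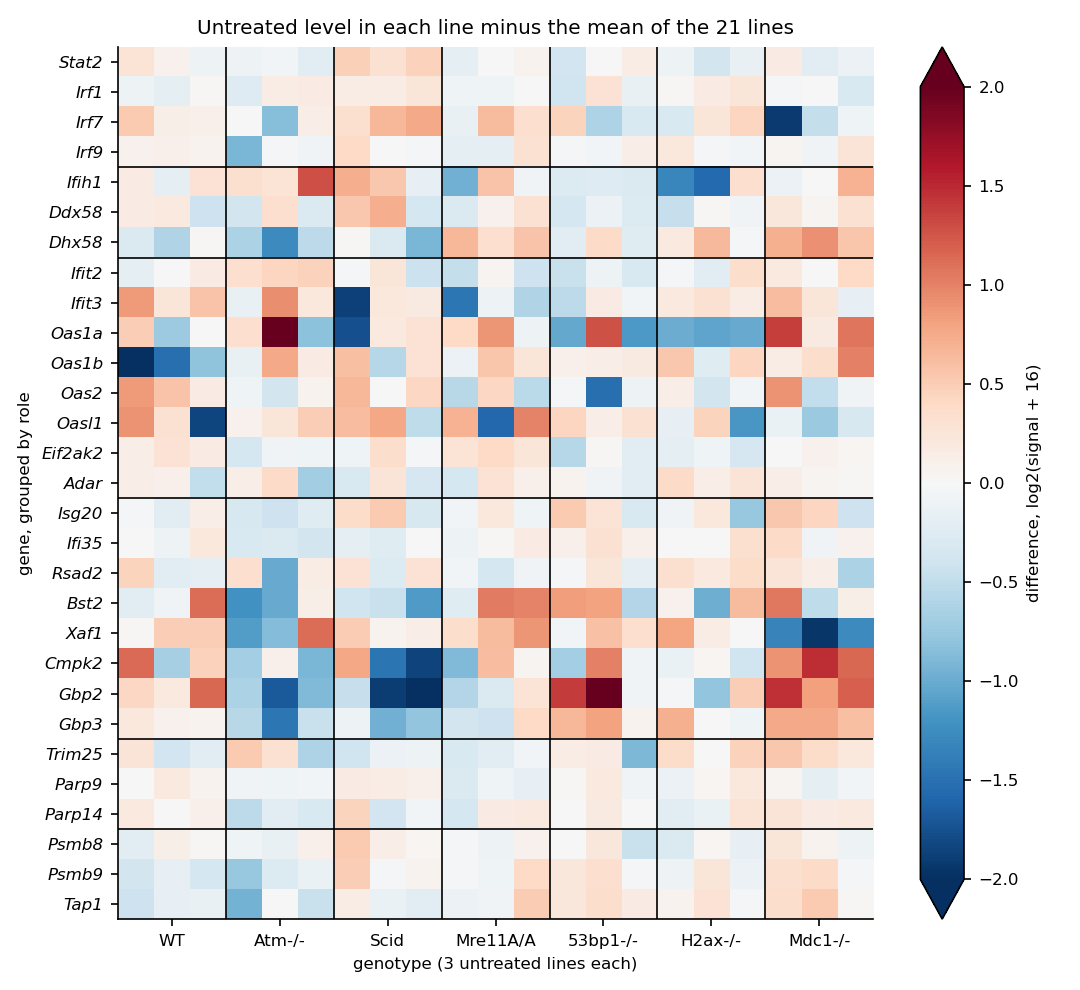
Untreated log2 level of the 29 tested genes in each of the 21 lines, minus the mean over the lines; genes are ordered by role, lines by genotype, and colours saturate at ±2. Blocks of 1 colour over all 3 lines of a genotype are seen for Gbp2, Gbp3, Xaf1 and Oas1b, while most genes show colours that change from line to line within a genotype.

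Each untreated mutant was also set against untreated WT. The comparisons share the 3 WT arrays, so the low Oas1b of WT enters all 6 of them. In Atm-/- lines no gene of the list was called (background 0.0731% of genes in limma), and 6 of 29 had an unadjusted p under 0.05, as had 1243 of all 12307. These were Gbp2 (-1.65 ± 0.55), Gbp3 (-0.93 ± 0.30), Irf9 (-0.42 ± 0.20), Ifi35 (-0.36 ± 0.14) and Parp14 (-0.45 ± 0.22), all lower than in WT, and Oas1b (1.73 ± 0.42), which was higher. The median difference of the 29 genes was -0.221 and that of all tested genes 0.0326. In Scid lines 0 of 29 were called (background 0.398%) and 5 had an unadjusted p under 0.05, as had 1414 of all 12307; the median was -0.0372 against 0.0181 for all genes. The Gbp2 difference was -2.07 ± 0.55 with an adjusted p of 0.0762, and of 0.0221 with the line as a random block, which called it as 1 gene of 29 (background 0.658%); over the alternatives this p lay between 0.0221 and 0.256.

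In Mre11A/A, 53bp1-/- and H2ax-/- lines 1 of 29 genes was called in each, Oas1b (backgrounds 2.43%, 2.96% and 4.21%). Its differences from WT were 1.70 ± 0.42, 1.61 ± 0.42 and 1.72 ± 0.42, with adjusted p-values of 0.0194, 0.0274 and 0.014. Each call was lost without WT line 1 (adjusted p = 0.147, 0.151 and 0.0932). Those of Mre11A/A and 53bp1-/- were also lost without WT line 3, that of Mre11A/A without its line 2 or 3, that of 53bp1-/- without any of its lines, and that of H2ax-/- without its line 1 or 3. In Mdc1-/- lines 2 of 29 were called (background 4.99%), Oas1b (1.98 ± 0.42, adjusted p = 0.00326) and Xaf1. Both remained called without each WT and each Mdc1-/- array in turn. Psmb9 and Tap1 were higher than in WT lines without passing, by 0.51 ± 0.18 and 0.54 ± 0.22 (adjusted p = 0.11 and 0.177).

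The transcription factors did not separate the genotypes in the F test. Stat2 read 468, 416 and 466 in untreated Scid lines, above all other untreated lines, and 311, 254 and 298 in H2ax-/- lines; this pair was called (-0.62, adjusted p over the pairs = 0.0299), and the F test was not (adjusted p = 0.0906). WT lines gave 406, 354 and 308. On a second kept Stat2 probe set the untreated means of Scid and H2ax-/- lines were 180.8 and 180.1. Irf9 read 398, 398 and 392 in WT lines and 190.3, 364 and 354 in Atm-/- lines, of which line 1 was the lowest of all 21 lines (F test adjusted p = 0.51). Irf7 gave 81.4, 57.6 and 57.03 in WT and 2.100, 32.8 and 48.2 in Mdc1-/- lines (adjusted p = 0.338), and the irradiated arrays ranged over 14.2, 47.6 and 177 as lowest, median and highest. Eif2ak2 read 465, 518 and 472 in WT, 513, 561 and 499 in Mre11A/A and 373, 396 and 332 in H2ax-/- lines (adjusted p = 0.126). Another kept Eif2ak2 probe set was called by the F test in the fit of all probe sets (adjusted p = 0.0498). Its untreated means were 521 in WT, 404 in Mre11A/A, 364 in H2ax-/- and 330 in Mdc1-/- lines, so the Mre11A/A direction depended on the probe set. A further one was not called (adjusted p = 0.69). The ranges of these genes overlapped between most genotypes.

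Of the genes for antigen processing, Psmb9 read 2358, 2717 and 2366 in WT and 1792, 2514 and 2756 in Atm-/- lines, against 4289.6, 2949 and 3186 in Scid and 2989, 2854 and 3988 in Mre11A/A lines. It read 3562, 3845 and 2999.7 in 53bp1-/-, 2832, 3601 and 2789 in H2ax-/- and 3777, 3959 and 2963 in Mdc1-/- lines. All lines of these 5 mutants were above all lines of WT and Atm-/-. The F test gave an adjusted p of 0.0536, and of 0.0146 with the line as a random block, which called it as the sixth gene against 19% of all genes; over the alternatives it lay between 0.0146 and 0.159. Tap1 read 911, 1779 and 1293 in Atm-/- and 2275, 2572 and 1794 in Mdc1-/- lines, a called pair (0.77, adjusted p over the pairs = 0.0472). A second kept Tap1 probe set, with weak signals, did not follow the first (r = -0.149). Its untreated means were 80.3 in Atm-/- and 53.5 in Mdc1-/- lines. It was called by the F test in the fit of all probe sets (adjusted p = 0.0298), with the highest mean in Scid (116) and the lowest in Mre11A/A lines (20.2). Psmb8 was not called (adjusted p = 0.716). With both arrays of each line averaged, 9 genes were called among the genotypes, against 19.4% of all: Gbp2, Gbp3, Xaf1, Dhx58, Psmb9, Tap1, Ifi35, Ifit3 and Eif2ak2.

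The second question was whether 1 Gy changed these genes within 2 h. Averaged over the 7 genotypes, the response was small: Irf1, Tap1, Gbp2 and Gbp3 rose and Trim25, Stat2, Psmb9 and Psmb8 fell, none by more than 0.28 on the log2 scale. Taking arrays as independent, limma called Irf1 alone (0.27 ± 0.076 SE, adjusted p = 0.0378), 1 of 29 genes against 3.09% of all genes. Arrays of the same genotype and number deviate together, so both were taken as 1 line and fitted with the line as a block, which removes the differences in level between lines. This paired fit called 8 of 29 genes (27.6%), 4 higher and 4 lower, against 14.3% of all tested genes (6.43% higher and 7.91% lower). The median change of the 29 genes was 0.0226 and that of all genes -0.0023. The SE below are those of the paired fit.

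Irf1, the transcription factor whose promoter holds GAS and kappaB matches, rose by 0.27 ± 0.049 and in 16 of 21 lines (paired adjusted p = 0.000272). WT lines 1, 3 and 4 changed by 0.17, 0.75 and 0.61, from 751, 707 and 828 to 848, 1200.4 and 1269. In Mdc1-/- lines the changes were 0.41, 0.81 and 0.46, in H2ax-/- lines 0.39, 0.49 and 0.16 and in 53bp1-/- lines 0.38, 0.12 and 0.38. All lines of these 4 genotypes rose. Atm-/- lines changed by -0.10, 0.26 and -0.14, Scid lines by 0.62, -0.18 and 0.066 and Mre11A/A lines by -0.069, -0.11 and 0.26, and each of these genotypes held lines of both signs. The unpaired call was lost without both arrays of high median (adjusted p = 0.108) and without the filter on low values, and in 21 of 42 fits without 1 array. Paired, it was called without each of the 21 lines in turn (adjusted p between 7.46e-05 and 0.000904).

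Tap1, a subunit of the peptide transporter, rose by 0.24 ± 0.046 and in 17 of 21 lines (paired adjusted p = 0.000552). Its changes were 0.46, 0.59 and 0.11 in WT, 0.47, 0.44 and 0.34 in Scid, 0.34, 0.21 and 0.11 in 53bp1-/- and 0.20, 0.31 and 0.91 in Mdc1-/- lines. No line of these genotypes fell. Atm-/- lines gave -0.14, -0.31 and 0.26, Mre11A/A lines 0.25, -0.04 and 0.17 and H2ax-/- lines 0.25, -0.22 and 0.32. A second Tap1 probe set changed by 0.10 and was not called. Psmb9, the immunoproteasome subunit read from the other side of the same interval, fell by 0.13 (SE 0.028) and in 17 of 21 lines (paired adjusted p = 0.00187). Atm-/- lines changed by -0.31, -0.32 and -0.60, from 1792, 2514 and 2756 to 1438, 2008 and 1810.2, and WT lines by -0.013, 0.02 and -0.27. Scid lines gave -0.13, 0.15 and 0.082 and Mdc1-/- lines -0.15, -0.15 and -0.13. Psmb8, 970 bases beyond Tap1, fell by 0.11 (SE 0.03; 16 of 21 lines, paired adjusted p = 0.0148). Its second probe set changed by 0.12, the mean of both by 0.0075, and without both lines of high median the adjusted p was 0.0514.

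Gbp2 rose by 0.23 ± 0.052 and in 16 of 21 lines (paired adjusted p = 0.00263), and its second probe set by 0.29. The changes were 0.22, 0.61 and 0.23 in WT, 0.33, 0.13 and 0.60 in 53bp1-/-, 0.32, 0.53 and 0.37 in H2ax-/- and 0.36, 0.22 and 0.28 in Mdc1-/- lines, all upward. Atm-/- lines gave -0.30, -0.10 and 0.24, Scid lines 0.90, -0.16 and 0.079 and Mre11A/A lines -0.027, 0.064 and -0.055. Irradiated signals were 1227, 1405 and 2079 in WT, 407, 219 and 499 in Atm-/- and 2834, 1637 and 2233 in Mdc1-/- lines, with all Atm-/- lines below all WT lines and Mdc1-/- lines 1 and 3 above them. Gbp3 rose by 0.21 ± 0.046 and in 16 of 21 lines (paired adjusted p = 0.00204). Its changes were 0.38, 0.21 and 0.065 in Atm-/- and 0.43, 0.37 and 0.42 in Mdc1-/- lines, and -0.08, 0.22 and -0.048 in WT lines. Atm-/- lines, in which Gbp2 moved both ways, all rose for Gbp3.

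Trim25, the ubiquitin ligase that activates RIG-I, fell by 0.28 (SE 0.036) and in 19 of 21 lines (paired adjusted p = 3e-06). WT lines changed by -0.42, -0.44 and -0.32, from 3137, 2005 and 2247 to 2347, 1469.5 and 1802. Scid lines gave -0.44, -0.19 and -0.41, 53bp1-/- lines -0.29, -0.38 and -0.25, H2ax-/- lines -0.38, -0.12 and -0.26 and Mdc1-/- lines -0.30, -0.55 and -0.60. Atm-/- lines gave -0.27, -0.23 and 0.37 and Mre11A/A lines 0.014, -0.14 and -0.29, and of all lines Atm-/- line 3 and Mre11A/A line 1 did not fall. A second Trim25 probe set fell by 0.28 and was called, and another gave -0.14 without a call. Stat2 fell by 0.20 (SE 0.056) and in 15 of 21 lines (paired adjusted p = 0.0172). Scid lines changed by -0.28, -0.45 and -0.27 and Mre11A/A lines by -0.15, -0.53 and -0.23, all downward, against -0.48, 0.15 and 0.12 in WT lines. Its second probe set changed by -0.052 and was not called. In the paired fit Irf1, Tap1, Gbp2, Gbp3, Trim25, Stat2, Psmb9 and Psmb8 were each called without any 1 of the 21 lines; the highest adjusted p was 0.041, for Stat2.

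**Figure D5:**
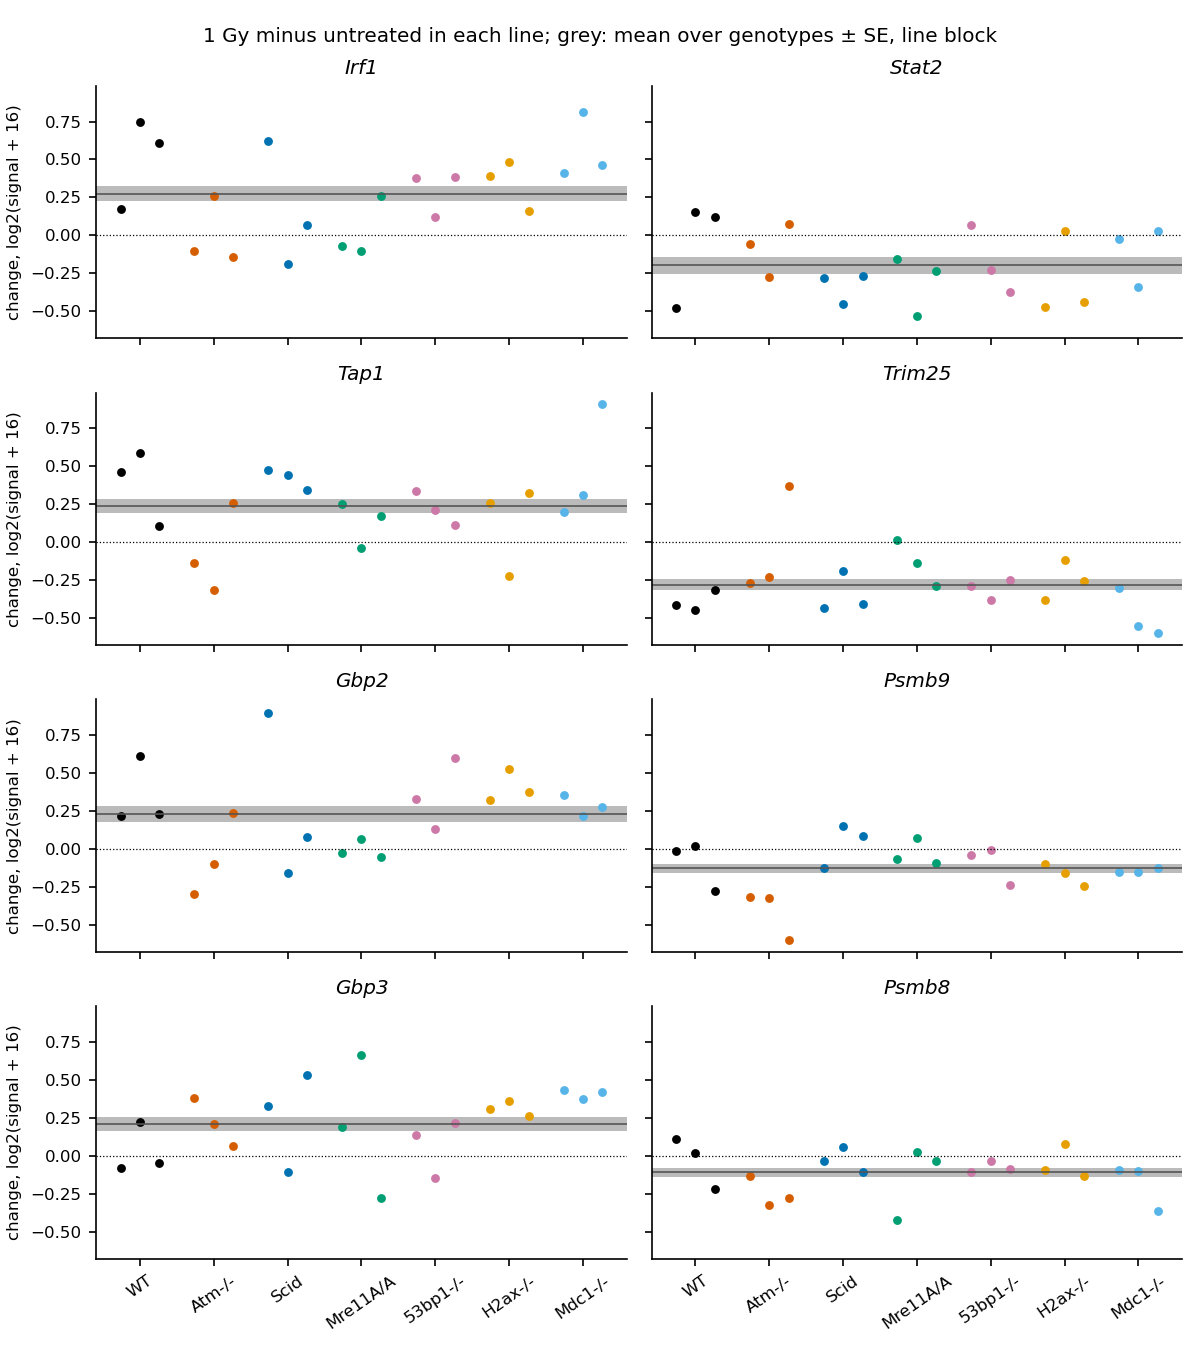
Change of log2(signal + 16) from untreated to 2 h after 1 Gy in each of the 21 lines, by genotype, for Irf1, Stat2, Tap1, Trim25, Gbp2, Psmb9, Gbp3 and Psmb8; each point is 1 line and the grey bar is the mean over the 7 genotypes ± the SE of the paired fit. Trim25 falls in 19 of 21 lines and Tap1 rises in 17, whereas Irf1 rises in all WT, 53bp1-/-, H2ax-/- and Mdc1-/- lines and moves both ways in the other genotypes.

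Within single genotypes, arrays taken as independent called 0 of the 29 genes in every genotype, by limma, against 0.0975% of all genes in WT, 0.00813% in Atm-/-, 0.0731% in Scid, 0% in Mre11A/A, 0.0244% in 53bp1-/-, 0.0894% in H2ax-/- and 0.634% in Mdc1-/- lines. At an unadjusted p under 0.05 there were 3, 1, 0, 0, 0, 2 and 3 of 29 in that order, and 609, 732, 501, 136, 344, 378 and 639 of all 12307. The paired fit called 3 genes in WT lines (background 3.78%): Irf1 (0.51 ± 0.13, paired adjusted p = 0.0266), Oas1b (1.40 ± 0.32, paired adjusted p = 0.0138) and Trim25 (-0.39 ± 0.094, paired adjusted p = 0.0186). In Mdc1-/- lines it called 4 (background 5.74%): Irf1 (0.56 ± 0.13, paired adjusted p = 0.00832), Tap1 (0.47 ± 0.12, paired adjusted p = 0.0184), Gbp3 (0.41 ± 0.12, paired adjusted p = 0.049) and Trim25 (-0.48 ± 0.094, paired adjusted p = 0.00173). In Atm-/- lines it called Psmb9 (-0.41 ± 0.073, paired adjusted p = 0.00622; background 1.33%), and in Scid lines Trim25 (-0.34 ± 0.094, paired adjusted p = 0.0489; background 2.7%). In Mre11A/A, 53bp1-/- and H2ax-/- lines 0 of 29 were called (backgrounds 0.0325%, 1.95% and 1.99%), and 1, 3 and 6 had an unadjusted p under 0.05, as had 549, 1154 and 1381 of all 12307.

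With 3 lines in a genotype, each of these calls was lost without at least 1 of the lines. A fit with fewer lines is also less precise, so a lost call does not by itself show that 1 line carried the change. Irf1 in WT lines was lost without line 3 or line 4 (adjusted p up to 0.296), Oas1b without line 1 or 3 (up to 0.2) and Trim25 without line 1 or 3 (up to 0.162). Trim25 in Scid lines was lost without line 1 or 3 (up to 0.404), and Psmb9 in Atm-/- lines without line 3 (up to 0.0604). In Mdc1-/- lines Irf1 was lost without line 2 (up to 0.178), Tap1 and Trim25 without line 3 (up to 0.519 and 0.0529), and Gbp3 without any of the 3 (up to 0.257). Without both lines of high median, Irf1 in WT lines had an adjusted p of 0.116 and Gbp3 in Mdc1-/- lines of 0.0551.

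Whether a mutant responded differently from WT was tested on the difference of both responses, and the 6 comparisons share the 6 WT arrays. Taken as independent, 0 of 29 genes were called for any mutant (at most 0.0244% of all genes), and 0 in the F test of all 7 responses (0.0163% of all; 0 of 29 at an unadjusted p under 0.05). Paired, the F test called 0 of 29 against 0.967% of all genes, with 6 at an unadjusted p under 0.05 and 1419 of all 12307. Of the comparisons with WT, 1 gene was called, Oas1b in Atm-/- lines (background 2.08%). WT lines rose by 1.72, 1.94 and 0.56, from 6.903, 19.1 and 41.2 to 59.2, 119 and 68.5, while Atm-/- lines changed by -1.07, -0.053 and -0.66, from 73.9, 152 and 95.3 to 26.8, 146 and 54.2. All 3 WT lines rose and all 3 Atm-/- lines fell. The difference was -2.0 ± 0.46 (paired adjusted p = 0.0246). It lost the call without WT line 1, WT line 3 or Atm-/- line 1, with adjusted p-values up to 0.143, and its WT values start from signals near the bottom of the range. For Irf1, the difference from the WT response was -0.50 in Atm-/-, -0.34 in Scid, -0.48 in Mre11A/A, -0.22 in 53bp1-/-, -0.16 in H2ax-/- and 0.052 in Mdc1-/- lines, and none passed (lowest paired adjusted p 0.168). The absence of a call does not show that Irf1 responded alike in these lines.

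Other genes of the pathway were read from a list of 128, of which 110 were on the platform and 94 passed the filter. Of the interferon genes themselves 9 of 14 were on the platform, 3 passed the filter, and none of these was called in the untreated F test or in the mean response. Of 10 receptor and signal genes 2 were called in the untreated F test, which called 16% of all genes, the background of each count below. Ifnar2, a chain of the type I interferon receptor, had mean signals of 778 ± 84.8 in WT, 521 ± 12.1 in Scid, 575 ± 65.1 in Mre11A/A and 846 ± 152 in Atm-/- lines (adjusted p = 0.000431), with the means of the other 3 mutants between those of WT and Atm-/- lines. Ifngr1, a chain of the type II receptor, had 696 ± 117 in WT, 1179 ± 205 in 53bp1-/-, 1044 ± 170.4 in H2ax-/- and 1038 ± 65.03 in Mdc1-/- lines (adjusted p = 0.0009). For Ifnar2 the highest mean was thus that of Atm-/- lines and the lowest that of Scid lines. Of 9 inhibitors 2 were called, Pias1 (1067 ± 120.0 in WT and 1638 ± 60.1 in Mre11A/A lines, adjusted p = 0.00299) and Trim24 (adjusted p = 0.0465). Of 19 sensors and adaptors 1 was called, Irf3, the factor that first induces interferon beta (1239.8 ± 68.9 in WT, 1682 ± 106 in Mre11A/A, 1692 ± 50.9 in H2ax-/- and 1694 ± 203 in Mdc1-/- lines, adjusted p = 0.00283).

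Of 53 other target genes that passed the filter 7 were called in the untreated F test, against 16% of all genes. The 4 with the smallest p were Nlrc5, Trim30a, Epsti1 and Gbp7. Nlrc5, the transactivator of MHC class I genes, Psmb9 and Tap1, had mean signals of 1072 ± 498 in Atm-/-, 1556 ± 131 in WT and 1823 ± 349 in H2ax-/- lines, and of 2077 ± 548 in Scid, 2458 ± 459 in Mre11A/A, 2614 ± 296 in 53bp1-/- and 2568 ± 293 in Mdc1-/- lines (adjusted p = 0.00432). Trim30a, a TRIM protein that restrains inflammatory signalling, was highest in WT lines at 2536 ± 491 and lowest in H2ax-/- lines at 890.4 ± 300.4 (adjusted p = 0.00472). Gbp7, of the same family as Gbp2, had 9609.5 ± 1311 in WT, 6072 ± 1068 in Atm-/-, 6472 ± 518 in Mre11A/A and 6569 ± 1381 in Scid lines (adjusted p = 0.0171). After radiation, the mean response called 1 of the 94 genes unpaired, against 3.09% of all genes. This was Irf5, a factor of Toll-like receptor signalling, at 0.36 ± 0.081 (adjusted p = 0.00563); it was chosen after its value was seen. Paired, 2 of 10 receptor and signal genes, 4 of 9 inhibitors and 3 of 19 sensors and adaptors rose and none of these groups held a called fall, and of the 53 other targets 7 rose and 4 fell, against 14.3% of all genes called.

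How far a line kept its own level was seen from its untreated and irradiated arrays. Over the 21 lines, log2 levels of Gbp2 on both arrays had r = 0.975, those of Gbp3 0.93 and those of Psmb9 0.909, and 21 of the 29 genes had r above 0.5. Irf7, Ifit3, Oasl1 and Rsad2, whose signals lay near or below the array medians, had r below 0.2. The points share genotypes and these values are a description. Neither these correlations nor those between genes below were computed for genes outside the list. The genes of the list did not vary as a block: over the 406 pairs of genes the median r among untreated lines was 0.0612, and 0.0842 among irradiated lines. Of the 32 pairs with r above 0.5 in untreated lines 18 were above it in irradiated lines too. The pairs most alike were Gbp2 with Gbp3 (r = 0.872, and 0.813 after radiation) and Psmb9 with Tap1 (0.866 and 0.785), each a pair of neighbours in the genome.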

How the data were processed

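The deposited values were linear probe-set intensities made by the authors with MAS5, per the submitters' processing notes (version not given in the sources used here). A mean of 500.003 per array after trimming 2% at both ends was found from the values. The 35 genes, the other pathway lists and the tests were chosen with earlier results of these data known.

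Of 45101 probe sets, 64 were controls, 34945 had 1 symbol, 932 several and 9160 were unnamed here by the platform annotation. Probe sets above the median of their array on at least 3 arrays were kept and the one with the highest mean per gene was used. In R 4.3.3, limma 3.58.1 (moderated variances with an intensity trend, two-sided tests, Benjamini-Hochberg over 12307 genes) fitted 14 group means (28 residual degrees of freedom), or the response of each line with the line as a block (14). Untreated levels were fitted again with the line as a random block (correlation 0.532) and on line means. The numbers pair the arrays: deviations from group means correlated at 0.358 to 0.647 in 21 pairs of the same number and at most at -0.0534 otherwise; the labels do not state the pairing. The number of arrays, 3 a group, limits the precision. In the unpaired fit p-values measure the spread of arrays within groups, with both arrays of a line taken as independent. In the paired fit they measure the spread of the changes between lines of a genotype.

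Genes named with values were those called in the untreated F test or in a response, and Irf7, Stat2, Irf9, Isg15, Ifit1, Oas1b, Mx1 and Eif2ak2 whatever their values; pathway genes were named by smallest p, up to 4 a role. Alternatives were pseudocounts of 1 and 64, no filter, quantile or upper-quartile scaling, the mean over kept probe sets, line means, the line block, leaving out each array or line, and leaving out both arrays of high median, chosen after seeing the data. The fitting was tested on simulated data. Python 3.11.15, pandas 2.3.3, numpy 2.4.6 and matplotlib 3.10.9 were used for tables and plots.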

Additional observations from a re-analysis of the deposited data

Results flagged for a closer look

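Both results below are differences between the responses of 2 genotypes. The search covered only genes called in the untreated F test or in a response, or named whatever their values. Other genes of the list also moved in opposite directions in all lines of 2 genotypes. Cmpk2 rose in Atm-/- lines (0.78, 1.16 and 0.95) and fell in Mdc1-/- lines (-0.57, -1.15 and -0.93). Ifih1 rose in Scid lines (0.49, 0.21 and 1.01) and fell in Mdc1-/- lines (-0.27, -0.55 and -0.47). How often this occurs over all genes was not counted. The response of Oas1b to radiation differed by -2.0 on the log2 scale between Atm-/- and WT lines (Atm-/- minus WT), with every WT line rising and every Atm-/- line falling; Oas1b signals of untreated WT lines were 6.903, 19.1 and 41.2. The response of Dhx58 differed by -0.80 between Mdc1-/- and Scid lines: all 3 Mdc1-/- lines fell (-0.094, -0.76 and -0.12) and all 3 Scid lines rose (0.45, 0.014 and 0.95), one of them by little. This pair was not tested by itself, and limma's F test of the responses of the 7 genotypes did not call Dhx58 (adjusted p = 1, and 0.774 with the line as a block).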

How the results depend on the processing

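The counts below are numbers of the 29 genes called at the threshold. Single-gene values and the counts of the paired fits were tallied together, and 1035 of these stayed the same under an alternative. For a single gene this means the same direction and side of the threshold, and for a count a change of at most 1.5 times. Of the single-gene values 68 lost a call, 31 gained one and 2 turned, and 13 of the paired counts moved further. With a pseudocount of 1, untreated Atm-/- and Scid lines against WT had 1 call each in place of 0, and with 64 untreated Mre11A/A and 53bp1-/- lines had 0 in place of 1, as they had on line means. Without both arrays of high median, Atm-/- and Scid lines had 1 each and the mean response 0, as it had without a filter on low values. With the mean over kept probe sets the count was 1 for untreated Mdc1-/- lines, 3 among the genotypes and 4 over all pairs; Xaf1 in Mdc1-/- lines turned to 0.39 and the mean response of Psmb8 to 0.0075. On line means 9 genes differed among genotypes. With the line as replicate block, which follows the pairing of the arrays, the counts were 1 for untreated Scid lines, 3 for the WT, 1 for the Atm-/-, 1 for the Scid, 4 for the Mdc1-/- and 8 for the mean response, and 1 for Atm-/- against WT; it moved no other count by over 1.5 times. Without single arrays the counts ranged from 0 to 2 for the mean response and from 0 to 1 for untreated Scid, Mre11A/A, 53bp1-/- and H2ax-/- lines. The cause was not tested. Signals near the array median limit Dhx58, Oas1b, Oas1a, Oas2, Irf7, Ifih1, Ifit3, Oasl1, Cmpk2 and Rsad2.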

Other observations

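Bst2 (tetherin, which holds budding viruses at the cell surface) varied widely among lines of a genotype. Untreated signals were 232, 259 and 612 in WT, 109, 128 and 297 in Atm-/-, 227, 582 and 558 in Mre11A/A and 501, 487 and 176 in 53bp1-/- lines, with 246, 308 and 501 in WT and 99.1, 27.8 and 357 in Atm-/- lines after radiation. Oas1a was highest in Atm-/- line 2, at 357 untreated and 367 after radiation, against 27.6, 25.8 and 27.2 in untreated H2ax-/- lines. In Mdc1-/- lines it read 210.5, 82.2 and 165. Isg20, an exonuclease that degrades viral RNA, read 432, 481 and 259.7 in untreated Scid and 487, 452 and 243 in untreated Mdc1-/- lines, with line 3 the lowest of both genotypes; after radiation line 3 was again the lowest, at 572, 520.1 and 317 in Scid and 667, 575 and 324 in Mdc1-/- lines. None of Bst2, Oas1a and Isg20 was called among the genotypes (adjusted p = 0.491, 0.378 and 0.709 in limma's F test), and all 3 were chosen after their values were seen.

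The median of the 29 genes relative to the mean of the lines was lowest in untreated Atm-/- line 1, at -0.25, and highest in untreated Scid line 1, at 0.29, and after radiation it was -0.30 and 0.29 in these lines. The lowest and highest irradiated values were those of Mre11A/A line 1, at -0.35, and WT line 4, at 0.35. Scid line 1 was also the line with the highest myeloid marker sum, and Atm-/- line 1 had an Irf9 signal of 190.3 and a Tap1 signal of 911, the lowest of the 21 untreated lines for both. The part of the marker difference was not tested.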
